A study of Mus musculus with 6 samples.

Results

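The colony-stimulating factors and lymphoid growth cytokines described here are 9 ligands, *Csf1*, *Csf2*, *Csf3*, *Kitl*, *Il7*, *Il15*, *Il34*, *Tslp* and *Flt3l*, chosen by gene symbol. All 9 were among the 20327 gene symbols counted in the colon of mice with colitis. *Csf1*, *Csf3*, *Kitl*, *Il7* and *Il34* reached 10 tags in 3 or more libraries of the 6 and were tested among 9334 genes. *Csf2*, *Il15*, *Tslp* and *Flt3l* fell below that filter, so the 5 tested ligands do not stand for all 9. Male *Il11-Egfp* mice of the C57BL/6 strain, 9 to 15 weeks of age, drank 1.5% dextran sulfate sodium (DSS), which injures the colonic epithelium, for 5 days and then water. The reporter is a bacterial artificial chromosome in which *Egfp* is read from the *Il11* promoter, and the mice were of a single line selected for matching *Il11* and *Egfp* expression. On day 7, cells negative for Ter119, CD45, CD31, EpCAM and the dead-cell dye DAPI were sorted from 3 mice into EGFP-Positive (IL-11+) and EGFP-Negative (IL-11-) cells, which gave 3 libraries of each. The comparison asks how stromal cells with an active *Il11* promoter differ from the remaining stroma of the inflamed colon. 5′Tag-seq counts a tag from the 5′ end of each mRNA, and the libraries held from 1022851 to 1169817 tags.

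Colony-stimulating factors are secreted by stromal and immune cells and drive the production, survival and activation of neutrophils and macrophages, while stem cell factor and Flt3 ligand act on progenitors, mast cells and dendritic cells. IL-7, IL-15 and thymic stromal lymphopoietin (TSLP) sustain lymphocytes and innate lymphoid cells. In the inflamed gut, fibroblasts are a known source of several of these ligands.

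*Il11*, the gene whose promoter drives the reporter, had 28, 51 and 89 tags in the IL-11- libraries and 1357, 732 and 2658 tags in the IL-11+ libraries. Every IL-11+ library lay above every IL-11- library, in the direction of the sort. Its log2 fold change was 4.98 (SE 0.393, adjusted p = 1.01e-07).

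*Csf3* was the ligand that rose in IL-11+ cells and *Kitl* the ligand that fell. To be called, a gene needed an adjusted p from edgeR under 0.05 together with a fold change over 2. Of the 5 tested ligands 1 was called higher, beside 3.44% of the 9334 tested genes, and 1 was called lower, beside 6.37% of them. The same pair were the tested ligands whose groups did not overlap. *Csf3* lay above in IL-11+ cells, as did 14.5% of tested genes, and *Kitl* lay below, as did 16.7%. The median log2 fold change of the 5 was −0.06, and that of all tested genes −0.01. The p-values measure the spread between these libraries. In sorted bulk samples, fewer cells of a type and less RNA per cell cannot be told apart.

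*Csf3* encodes granulocyte colony-stimulating factor (G-CSF), which drives neutrophil production and release. It had 52, 44 and 70 tags in the IL-11- libraries and 721, 420 and 348 tags in the IL-11+ libraries. The lowest IL-11+ library was far above the highest IL-11- library, and replicate 1 stood above the other IL-11+ libraries. In CPM (tags per 1000000, scaled by TMM), the mean was 49.5 ± 8.01 in IL-11- cells and 507 ± 227 in IL-11+ cells (SD, n = 3 each), a ratio of 10.2. The log2 fold change was 3.35 (SE 0.271, 95% interval 2.78 to 3.92, adjusted p = 1.11e-07). *Csf3* ranked 20 from the top among 9334 tested genes by log2 fold change. Taken by replicate number, the log2 ratios of IL-11+ over IL-11- were 3.94, 3.36 and 2.53. *Csf3* and *Il11* were not highest in the same library: replicate 3 of the IL-11+ cells had the most *Il11* tags and the fewest *Csf3* tags of the group. *Csf3* lies at chr11:98701263-98703629 on the plus strand (GRCm38, GENCODE M21), with 1 basic transcript and no other annotated gene over it.

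*Csf2*, which encodes granulocyte-macrophage colony-stimulating factor, was close to undetected. It had 0, 0 and 2 tags in IL-11- libraries and 0, 1 and 4 tags in IL-11+ libraries. The groups overlapped, and the ratio of summed tags, IL-11+ over IL-11-, was 2.79 with a 95% counting interval of 0.457 to 29.3. In an edgeR fit without the filter, its log2 fold change of 1.36 turned to −0.14 without IL-11+ replicate 3. A difference in *Csf2* was not detectable at this depth, where the floor of 3 tags was 2.56 to 2.93 CPM before TMM scaling. Such intervals and floors cover counting error only.

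*Csf1* and *Il34* encode macrophage colony-stimulating factor and IL-34, which both act on the CSF1 receptor and maintain macrophages. *Csf1* had 164, 197 and 269 tags in the IL-11- libraries and 124, 144 and 165 tags in the IL-11+ libraries. Most IL-11+ libraries were lower, but after scaling the groups met at 157 CPM. By replicate number *Csf1* was lower in every pair, with log2 ratios of −0.25, −0.34 and −0.49. The means were 188 ± 32.2 and 145 ± 13 (SD, n = 3 each), and *Csf1* was not called (log2 fold change −0.37, 95% interval −0.74 to −0.01, adjusted p = 0.175), nor was it with the replicate block (adjusted p = 0.0857). *Il34* had 30, 27 and 32 tags in the IL-11- libraries and 56, 57 and 30 tags in the IL-11+ libraries. Replicates 1 and 2 of the IL-11+ cells were high, and replicate 3 lay at the IL-11- level, with log2 ratios by replicate number of 1.05, 1.19 and 0.12. The scaled means were 26.8 ± 1.66 and 48.6 ± 17.3 (SD, n = 3 each). The log2 fold change of *Il34* was 0.85 (95% interval 0.27 to 1.44, adjusted p = 0.0453), which passed on p but not on fold change. Without IL-11+ replicate 3 it was 1.13 with adjusted p = 0.00371 and was called, and over all 14 alternatives the adjusted p ran from 0.00371 to 0.192. *Csf1* lies at chr3:107741048-107760469 and *Il34* at chr8:110741829-110805924, both on the minus strand. *Gm15894* and *Gm15895* are annotated antisense to *Il34*; tags were mapped in 1 orientation only, which keeps antisense transcripts apart.

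*Kitl* encodes stem cell factor, the ligand of the receptor tyrosine kinase KIT, which supports mast cells, interstitial cells of Cajal and progenitors. It had 209, 196 and 185 tags in the IL-11- libraries and 60, 71 and 60 tags in the IL-11+ libraries. All IL-11+ libraries were low and close together, and the groups did not overlap. The scaled means were 179 ± 24.4 and 64.3 ± 7.46 CPM (SD, n = 3 each), 2.78-fold lower in IL-11+ cells. The log2 fold change was −1.47 (SE 0.182, 95% interval −1.85 to −1.09, adjusted p = 1.29e-05). By replicate number the log2 ratios were −1.65, −1.36 and −1.41. *Kitl* ranked 351 from the lowest among 9334 tested genes. It lies at chr10:100015630-100100416 on the plus strand, with 3 basic transcripts and no other annotated gene over it.

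*Flt3l*, the ligand that expands dendritic cell progenitors, had 5, 10 and 5 tags in IL-11- libraries and 3, 8 and 2 tags in IL-11+ libraries. The groups overlapped, and the ratio of summed tags, IL-11- over IL-11+, was 1.38 (95% counting interval 0.652 to 3.01). By replicate number *Flt3l* was lower in every pair, with log2 ratios of −0.59, −0.21 and −1.11 on these few tags. In the fit without the filter it was not called with the replicate block (adjusted p = 0.836), and its log2 fold change of −0.42 turned to 0.03 without IL-11- replicate 2. *Gm45713* overlaps *Flt3l* on the same strand, so its tags are uncertain.

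The lymphoid cytokines were scarce in both groups. *Il7*, needed for lymphocyte development and survival, had 6, 11 and 23 tags in the IL-11- libraries and 7, 11 and 16 tags in the IL-11+ libraries. These values interleaved, and the scaled means were 11.7 ± 6.67 and 11.3 ± 3.92 CPM (SD, n = 3 each). The log2 fold change was −0.06 with a 95% interval of −1 to 0.87 (adjusted p = 0.953), and it turned to 0.47 without IL-11- replicate 3 and to 0.16 without IL-11+ replicate 1. *Il15*, which sustains NK cells and memory T cells, had 3, 5 and 4 tags in IL-11- libraries and 3, 1 and 0 tags in IL-11+ libraries. The groups overlapped at 3 tags, with a ratio of summed tags, IL-11- over IL-11+, of 2.68 (95% counting interval 0.814 to 11.4). *Tslp*, which acts on dendritic cells and group 2 innate lymphoid cells, had 6, 5 and 10 tags in IL-11- libraries and 3, 2 and 5 tags in IL-11+ libraries. The groups met at 5 tags, and the ratio in the same direction was 1.88 (95% counting interval 0.847 to 4.47). *Tslp* too was lower in every pair of the same replicate number, at −0.85, −1.21 and −0.78, and was not called with the replicate block and no filter (adjusted p = 0.684). In an edgeR fit without the filter, 0 of the 4 low ligands were called. There 2.1% of 20327 genes were called higher and 3.77% lower, and the adjusted p of the 4 ran from 0.573 to 0.746. By an unadjusted p under 0.05, 0 of the 4 passed, beside 17.1% of the 20327 genes.

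**Figure D1:**
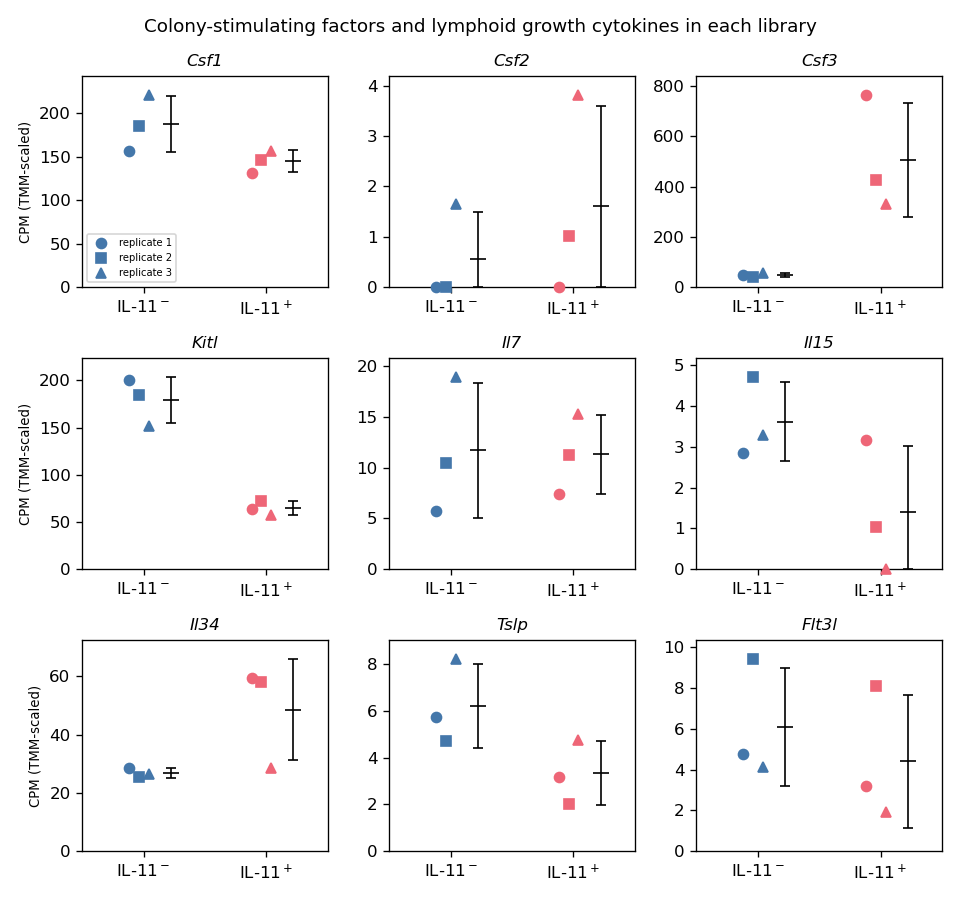
CPM after TMM scaling for the 9 ligands, on axes that start at 0. Each coloured marker is a library, with its shape giving the replicate number, and the black bar is the mean ± SD of 3 libraries, cut at 0. *Csf3* lies above and *Kitl* below in every IL-11+ library, and *Il34* has IL-11+ replicate 3 at the IL-11- level.

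The receptors of these ligands were mostly near 0 in these cells, which were sorted as negative for CD45. Of 12 receptor genes counted, 4 were tested. Of these 1 was called higher and 1 lower, beside 3.44% and 6.37% of all tested genes. Their median log2 fold change was 0.38, beside −0.01 for all tested genes. *Kit*, the receptor of stem cell factor, had 63, 34 and 69 tags in the IL-11- libraries and 0, 0 and 7 tags in the IL-11+ libraries. *Kit* passed the filter only through the IL-11- libraries, the group where it is high, so a lower call was the only one open to it and no fold change is given. Without any 1 IL-11- library it missed the filter and was not tested, and without IL-11- replicates 1 or 2 the receptors called fell from 2 to 0. *Crlf2*, the TSLP receptor chain, had 8, 10 and 18 tags in the IL-11- libraries and 16, 33 and 23 tags in the IL-11+ libraries. The groups did not overlap after scaling (log2 fold change 1.16, SE 0.365, adjusted p = 0.0375). The call of *Crlf2* was lost by DESeq2 (adjusted p = 0.0832), by scaling to library size alone (adjusted p = 0.0639) and without any of 4 libraries, with adjusted p from 0.0135 to 0.208 over 14 alternatives. Those 4 were IL-11- replicates 1 and 2, where it was 0.159 and 0.141, and IL-11+ replicates 2 and 3, where it was 0.208 and 0.0503.

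*Csf2ra*, the specific chain of the GM-CSF receptor, and *Il15ra*, which presents IL-15 to neighbouring cells, were tested and not called. Their log2 fold changes were 0.58 (adjusted p = 0.344) and 0.17 (adjusted p = 0.76), the latter turning to −0.04 without IL-11- replicate 3. *Csf3r*, the receptor of G-CSF on neutrophils, had 1, 3 and 1 tags in IL-11- libraries and 1, 1 and 0 in IL-11+ libraries. The receptor of the ligand that rose was at or under 3 tags in every library, but CD45-positive cells were removed by the sort. Such counts do not show whether cells that respond to G-CSF were present in the colon. *Csf1r* had 0 to 2 tags in each library, *Il7r* 0 to 1 and *Flt3* 0 to 2. *Csf2rb* and *Csf2rb2* had at most 16 and 12 tags in a library. They are near-identical paralogs, so the division of tags between them is uncertain. IL-34 also binds syndecan-1 and the phosphatase PTPRZ1. Of the genes for these, *Sdc1* had 216, 217 and 82 tags in the IL-11- libraries and 1008, 971 and 583 tags in the IL-11+ libraries. The groups were far apart (log2 fold change 2.45, SE 0.317, adjusted p = 2.07e-05), whereas *Ptprz1* had at most 9 tags in a library and was not tested.

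Stromal colony-stimulating factor genes are known to respond to IL-1, IL-17, TNF, oncostatin M and Toll-like receptor ligands. Of 9 receptor genes for these signals, 8 were tested. Of these 1 was called higher and 0 lower, beside 3.44% and 6.37% of all tested genes, with a median log2 fold change of −0.01. *Il1r1*, the signalling receptor for IL-1, had 249, 246 and 273 tags in the IL-11- libraries and 515, 502 and 513 tags in the IL-11+ libraries. Within each group the libraries were close together, and the log2 fold change was 1.15 (SE 0.158, adjusted p = 3.95e-05). The other 7 tested genes ran from −0.52 for *Tlr4* to 0.32, with adjusted p of at least 0.115.

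Messages of several cytokines, G-CSF and GM-CSF among them, carry AU-rich elements in the 3′ untranslated region, to which the decay factor tristetraprolin binds. Of 10 genes for such stability factors, all tested, 0 were called higher and 1 lower, beside 3.44% and 6.37% of all tested genes. Their median log2 fold change was 0.08. The gene called was *Zfp36*, which encodes tristetraprolin. It had 4014, 3847 and 4543 tags in the IL-11- libraries and 1287, 1815 and 1868 tags in the IL-11+ libraries. The groups did not overlap (log2 fold change −1.17, SE 0.177, adjusted p = 0.000119). Its paralog *Zfp36l1* lay the other way, where a log2 value of 0.57 (SE 0.171, adjusted p = 0.0275) was under the fold threshold. To show what the element looks like in the ligand that rose and in its classical bearer, the 30 bases with the most ATTTA pentamers of each 3′ untranslated region follow, read 5′ to 3′ from GENCODE M21 transcripts with the pentamers in capitals.
*Csf3*, bases 24 to 53 of 669: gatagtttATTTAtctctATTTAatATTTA
*Csf2*, bases 230 to 259 of 317: tttttaaatATTTATTTATTTATTTATTTA
The *Csf3* region held 6 pentamers and the *Csf2* region 9, with 4 copies of the nonamer TTATTTATT in *Csf2* and 0 in *Csf3*. *Kitl* had 14 pentamers in 4435 bases, *Csf1* 4 in 2111 and *Il34* 1 in 605, all without the nonamer. Per 1000 bases these were 8.97 for *Csf3*, 28.4 for *Csf2*, 3.16 for *Kitl*, 1.89 for *Csf1* and 1.65 for *Il34*. Over 20921 genes, 7.56% held the nonamer and 35.2% at least 3 pentamers, in a region of 935 bases at the median. These letters are a description, and binding or decay was not measured.

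Transcription factors known for colony-stimulating factor promoters include NF-κB, C/EBP and AP-1. Of 12 such genes, all tested, 0 were called higher and 1 lower, beside 3.44% and 6.37% of all tested genes. Their median log2 fold change was −0.04. *Junb*, an AP-1 subunit, had 1438, 1626 and 1580 tags in the IL-11- libraries and 638, 715 and 713 tags in the IL-11+ libraries. All IL-11+ libraries were low, and the log2 fold change was −1.01 (SE 0.162, adjusted p = 0.000208), at the edge of the fold threshold. It fell short of that threshold without the filter (−0.97), with the filter at 1 library (−1) and without IL-11- replicate 2 (−0.96), IL-11+ replicate 1 (−0.98) or IL-11+ replicate 3 (−0.99). *Fos*, another AP-1 subunit, and *Cebpd*, a C/EBP factor, also had groups that did not overlap. Their log2 fold changes were −0.95 (adjusted p = 0.000826) and −0.94 (adjusted p = 0.00103), short of the fold threshold. With scaling to library size alone both were called, at −1.03 and −1.01. Leaving out IL-11- replicate 3 or IL-11+ replicate 2 brought *Fos* to −1.07 and −1.02, and leaving out IL-11+ replicate 3 brought *Cebpd* to −1.1. *Nfkbiz*, which encodes the NF-κB cofactor IκBζ, was also below in every IL-11+ library, by less (−0.41, adjusted p = 0.107). The NF-κB subunit genes lay between −0.38 for *Rela* and 0.48 for *Rel* and were not called.

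RefSeq promoters (GRCm38.p6) were used for *Csf1*, *Csf2*, *Kitl* and *Flt3l*, 4 of the 9 ligands. The files held none for *Csf3*, *Il7*, *Il15* or *Il34*, and the promoter of *Tslp* was not analysed here. The 250 bases before the start are printed for *Csf1*, the 1 tested ligand whose window lies outside its GENCODE gene, as a 5′ tag counts transcripts that begin next to them. Capitals mark matches on either strand. The letters searched were TGANTCA for AP-1. For NF-κB they were GGANTTTCC and GGGNTTTCC, and for C/EBP they were TTGCNNAA. The start-site box was searched as TATAAA.
*Csf1*, chr3:107760470-107760719, minus strand: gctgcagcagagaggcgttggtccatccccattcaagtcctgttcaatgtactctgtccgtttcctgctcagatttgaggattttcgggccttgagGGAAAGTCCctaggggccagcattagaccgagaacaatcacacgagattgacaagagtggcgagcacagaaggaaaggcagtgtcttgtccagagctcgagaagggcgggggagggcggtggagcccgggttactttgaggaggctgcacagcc
*Csf1* held 1 match to the first NF-κB form, on the reverse strand, that begins 154 bases before the start. *Csf2* held 1 match to the C/EBP form, 145 bases before a RefSeq start that itself lies 232 bases upstream of the GENCODE start, and *Flt3l* held 0 matches. *Kitl* held a TATAAA that begins 25 bases before the RefSeq start and none of the other motifs. That start lies inside the gene as GENCODE draws it, with 191 of the 250 bases before it in the gene, so for *Kitl* these bases need not be a promoter and are not printed. Of 32851 promoters of the same 250 bases, 12.4% held TATAAA, 1.07% GGANTTTCC, 1.46% GGGNTTTCC, 9.56% TTGCNNAA and 6.75% TGANTCA. G and C made up 56.4% of the *Csf1* window. The files give 1 count per gene, so which start a tag came from was not analysed here.

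CSF-1, stem cell factor and Flt3 ligand are made as membrane proteins that ADAM proteases can release. The list for this shedding holds *Adam9*, *Adam10*, *Adam17*, *Adam33* and *Timp3*, the last encoding an inhibitor of such proteases. Of these 5 genes, all tested, 0 were called by edgeR or by DESeq2, which called 8.22% of the 9334 tested genes. An adjusted p under 0.05 was found for 1 of the 5, beside 15.5% of tested genes, and an unadjusted p under 0.05 for 2, beside 26.7%. Their median log2 fold change was 0.35. *Adam17*, a main sheddase, had 54, 59 and 53 tags in the IL-11- libraries and 64, 93 and 78 tags in the IL-11+ libraries. The groups did not overlap, but the log2 fold change of 0.65 (SE 0.202, adjusted p = 0.034) lay under the fold threshold. *Adam10* had a log2 fold change of 0.35 (adjusted p = 0.176), and *Adam33* lay the other way at −0.98 (adjusted p = 0.218).

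**Figure D2:**
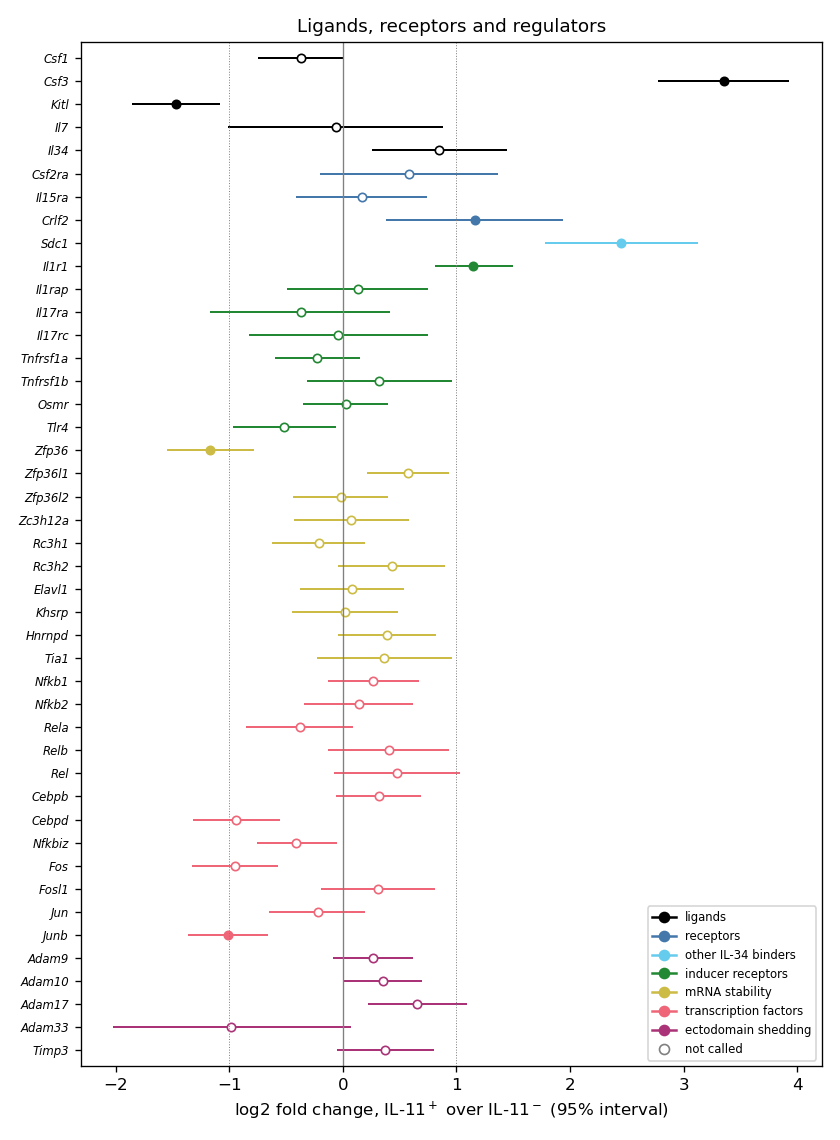
Log2 fold change of IL-11+ over IL-11- cells with its 95% interval for the 5 tested ligands and the tested genes of the receptor, inducer receptor, mRNA stability, transcription factor and shedding lists. Filled markers passed both thresholds and open markers did not; dotted lines mark a fold change of 2. *Csf3* lies at 3.35 and *Kitl* at −1.47. *Kit* is not drawn, as it passed the filter only through the IL-11- libraries.

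The sorted groups also differed in cell type markers. Fibroblast markers (10 of 10 detected, *Dcn* the most abundant) summed to 22800, 22900 and 25300 CPM in the IL-11- libraries and 43100, 34900 and 30900 in the IL-11+ libraries. Of these 2 were called higher, *Col3a1* (log2 fold change 1.04) and *Pdpn* (1.06), and 0 lower, beside 3.44% and 6.37% of all tested genes. The other 8 were not called. Among them *Lum* was below in every IL-11+ library (−0.64, adjusted p = 0.0378), and the groups overlapped for *Col1a1*, *Col6a1*, *Pdgfra* and *Vim* (−0.27 for *Vim*, adjusted p = 0.384). Without *Dcn* the sums were 9430, 12000 and 13400 against 16900, 17800 and 16500 CPM. *Col3a1* and *Pdpn* missed the fold threshold with library size scaling (0.96 and 0.97) and without IL-11- replicate 1 (0.83 and 0.94), and *Pdpn* also without IL-11+ replicate 1 (0.97).

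Smooth muscle and interstitial cell of Cajal markers were low in the group where *Kitl* was low, and pericyte markers were mixed. Smooth muscle markers (6 of 6 detected, *Myh11* the most abundant) summed to 2170, 2670 and 3400 CPM in the IL-11- libraries and 81.6, 132 and 293 in the IL-11+ libraries, and all 6 were called lower, *Cnn1* after passing the filter only through the IL-11- libraries. Pericyte markers (6 of 6, *Rgs5* the most abundant) summed to 2630, 2230 and 2020 against 1070, 894 and 793, with 3 called lower. That gap rested on *Rgs5*: without it the sums were 765, 627 and 545 against 871, 718 and 597, and the groups overlapped. *Abcc9* (log2 fold change 0.66, adjusted p = 0.0167) and *Kcnj8* (0.71, adjusted p = 0.0394) lay higher, short of the fold threshold, and *Notch3*, among the 3, passed the filter only through the IL-11- libraries. Interstitial cell of Cajal markers (3 of 3, *Ano1* the most abundant) include *Kit* itself and summed to 271, 168 and 258 against 21.2, 20.3 and 50.5. All 3 were called lower, *Kit* with the limit given above, and *Etv1* missed the fold threshold without IL-11- replicate 1 (−0.93). Of all tested genes, 6.37% were called lower. Within groups *Kitl* lay in the order of some of these sums and not of others. Among IL-11+ libraries *Kit* and the smooth muscle and Cajal sums were highest in replicate 3. There *Kitl* was lowest after scaling (63.6, 72.1 and 57.2 CPM), but replicates 1 and 3 both had 60 *Kitl* tags. The pericyte sum was lowest in replicate 3 too, with or without *Rgs5*. Among IL-11- libraries *Kitl* fell from replicate 1 to 3 (200, 185 and 152 CPM). The pericyte sum fell in the same order, with or without *Rgs5*. The smooth muscle sum rose, and the Cajal sum followed neither order. The part of these cell types in the *Kitl*, *Kit* and *Csf3* results was not tested, and an order of 3 libraries cannot show it.

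Of the sorted surface proteins, *Ptprc*, *Pecam1* and *Epcam*, the genes of CD45, CD31 and EpCAM, had at most 7, 1 and 1 tags in a library. Leukocyte markers (3 of 3 detected, *Laptm5* the most abundant) summed to 3.82 to 15.1 CPM in IL-11- libraries and 2.12 to 4.06 in IL-11+ libraries. Macrophage and monocyte markers (9 of 10 detected, *Cd68* the most abundant) summed to 15.6 to 33.9 and 5.72 to 19.1. Neutrophil markers (5 of 6, *S100a8* the most abundant) summed to 4.77 to 6.6 and 7.11 to 25.4, at no more than 24 tags in a library, and without *S100a8* the groups overlapped. The macrophage list holds *Csf1r*, the neutrophil list *Csf3r* and the T-cell list *Il7r*, so with *Kit* 4 receptor genes stand in a marker list too. T, NK and innate lymphoid cell markers (7 of 8, *Gzma* the most abundant) summed to 9.42 to 9.85 and 1.06 to 5.72. B and plasma cell markers (6 of 6, *Jchain* the most abundant) summed to 4.11 to 154 and 62.5 to 255, with 149, 163 and 5 tags in the IL-11- libraries and 59, 251 and 72 tags in the IL-11+ libraries. Endothelial markers (6 of 7, *Tek* the most abundant) summed to 27.3 to 43 and 6.68 to 18. Without *Tek* the sums were 11.5, 4.71 and 3.28 CPM in the IL-11- libraries against 0, 1.02 and 1.91 in the IL-11+ libraries. *Tek* was called lower (log2 fold change −1.59, adjusted p = 0.0085), but not without IL-11+ replicate 2 (−1.39). Epithelial markers (7 of 8, *Krt8* the most abundant) summed to 2.83 to 23 and 0 to 4.77, and erythroid markers (6 of 6, *Hbb-bs* the most abundant) to 0 to 305 and 2.03 to 19.1, with 95, 0 and 372 tags against 18, 2 and 20. Red cell and plasma cell RNA was thus not absent from every library. The 7 mast cell genes listed, with *Adgre1*, *Ly6g*, *Cd2*, *Cdh5* and *Cdh1*, were not analysed here.

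Among the genes most like *Csf3* over the 6 libraries, by Pearson correlation of log2 CPM among the 5063 tested genes that averaged 30 tags or more, were *Acsl4* (r = 0.997), *Sqle* (0.996), *Abhd5* (0.995) and *Serpina3f* (0.994). *Acsl4* encodes an acyl-CoA synthetase that prefers arachidonic acid, *Sqle* an enzyme of cholesterol synthesis, *Abhd5* an activator of triglyceride breakdown and *Serpina3f* a serine protease inhibitor. These 4 were called higher, with log2 fold changes from 1.39 for *Abhd5* to 2.26 for *Acsl4*. *Acsl4* had 183, 176 and 208 tags in the IL-11- libraries and 1068, 701 and 632 tags in the IL-11+ libraries, in the same order as *Csf3* within the IL-11+ group. The 6 libraries share the contrast between groups, which any gene with separate groups follows. Most like *Csf1*, the tested ligand with the most tags after *Csf3*, were *Fam208b* (0.99), *Lum* (0.989), *Flot1* (0.988), *Tpst1* (0.987) and *Chd9* (0.979). Of these *Lum*, which encodes the matrix proteoglycan lumican and is also on the fibroblast list, had a log2 fold change of −0.64 (adjusted p = 0.0378), and *Tpst1*, which encodes a protein-tyrosine sulfotransferase, was called lower at −1.03 (adjusted p = 0.0367). The call of *Tpst1* was lost in 6 of 14 alternatives, over all of which its adjusted p ran from 0.00119 to 0.236. The 4 libraries whose removal ended it were IL-11- replicates 2 and 3 (−1.06 and −0.66) and IL-11+ replicates 1 and 2 (−0.79 and −1.1).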

How the data were processed

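The authors deposited whole-number tag counts per gene symbol for each library; their notes name cutadapt 1.18, Bowtie2 2.2.5, R 3.5.1 and the mm10 build, and tags were mapped in 1 orientation to RefSeq RNA. Their stated filter, printed as excluding genes with 10 or more tags, was read as keeping them. Counts were fitted across all tested genes with edgeR 4.0.16 in R 4.3.3 (TMM scaling, quasi-likelihood test, Benjamini-Hochberg adjustment). Genes needed 10 tags in 3 of 6 libraries. The IL-11- libraries held 1057170, 1078179 and 1169817 tags and the IL-11+ libraries 1046538, 1022851 and 1049048. Replicate numbers were taken to pair cells of the same mice, which the labels do not state. Same-numbered deviations from group means correlated at 0.23, 0.19 and 0.27 over 5063 genes, other-numbered ones at a mean of −0.11. Centring on group means ties these values together. The reported fit was unpaired and treats the 6 libraries as independent. Alternatives were DESeq2 1.42.0, other scalings, other filters, the replicate block, adjusted p alone and leaving out each library. Intervals for ratios of summed tags are exact binomial (Clopper-Pearson). Scripts were tested on simulated data. The text names the 9 ligands, *Il11*, genes of 6 pathway lists and 14 marker lists, and the 5 genes most correlated with the tested ligand of smallest p (*Csf3*) and with the one of most tags after it (*Csf1*). Of these, 1 marker list and 1 correlated gene are not reported here. Members and lists were chosen with earlier results of these data known. Sequences came from RefSeq (GRCm38.p6) and GENCODE M21.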

Additional observations from a re-analysis of the deposited data

How the results depend on the processing

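*Csf3* and *Kitl* were called in all 14 alternatives, with log2 fold changes from 2.94 to 3.58 and from −1.6 to −1.39. With adjusted p alone, 638 genes in place of 321 were higher, and 2 ligands in place of 1, as *Il34* joined. With the replicate block, 337 genes were higher and 648 lower, and it changed no call of a gene named in the report. Without 1 library, 251 to 306 genes were called higher and 341 to 579 lower, ligands higher were 1 to 2 and ligands lower stayed at 1. With the tested genes of all libraries kept, an alternative chosen after seeing the data, the ranges were 267 to 329 and 483 to 580, and ligands higher 1 to 2, so part of the drop in lower calls came from genes that then missed the filter. Leaving out a library turned the sign of *Il7* (−0.4 to 0.47), *Il15ra* (−0.04 to 0.42) and *Jchain* (−0.68 to 0.79), and without the filter, also added later, of *Csf2* (−0.14 to 3.87) and *Flt3l* (−1.19 to 0.03); the cause was not tested. Depth limits *Csf2*, *Il15*, *Tslp* and *Flt3l*, whose tags allow wide ratios.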
